A study of Mus musculus with 31 samples.

Results

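The nuclear genes of respiratory complex I were described in single lateral (LOC) and medial (MOC) olivocochlear neurons of the mouse brainstem. They were taken by name, as every gene of the authors' normalized table whose symbol is Nduf with the letter code of a subunit (a, b, c, s, v, ab) or of an assembly factor (af) and a number. This gave 47 of the 20784 genes in that table, and all 47 held reads in at least 25% of the cells of either group, the condition under which a gene counts here as measured (17754 genes in all). By textbook role, 37 are structural subunits, 8 are assembly factors named Ndufaf, and 2 are Ndufa4, now regarded as a subunit of complex IV, and its paralog Ndufa4l2. The row named Ndufb1 carries the name Ndufb1-ps in the GENCODE M21 annotation.

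LOC neurons (18 cells, recorded in the lateral superior olive) and MOC neurons (13 cells, recorded in the trapezoid body's ventral nucleus) are the cholinergic neurons that project from the brainstem to the cochlea. All came from acute slices of ChAT-IRES-Cre; tdTomato mice, in which Cre at the choline acetyltransferase gene turns on a red protein for good in cells that have used that gene, and the labels give the genotype of both groups as wild-type. Each cell was recorded by patch clamp, its cytoplasm was aspirated, and the RNA was read by Smart-seq2 with Nextera libraries. No age, sex or animal is named, so a group stands for 1 sample without replicates. No difference below was tested, and an SD is the spread between cells.

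Complex I, or NADH:ubiquinone oxidoreductase, takes electrons from NADH, passes them along iron-sulfur clusters to ubiquinone, and pumps protons across the inner mitochondrial membrane. It is L-shaped, with a peripheral arm in the matrix that carries the flavin and the clusters and a membrane arm that pumps. The core of the membrane arm is encoded in mitochondrial DNA, whereas the core of the peripheral arm and all accessory subunits are nuclear. Neurons draw most of their ATP from the respiratory chain, and defects of complex I in human patients and in mice damage brainstem nuclei.

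Libraries held 356412 to 2627174 counts, so that 3 counts, the limit that a count of 0 allows, came to between 1.14 and 8.42 CPM (counts per 1000000 counts over all mouse genes) in a cell. The reads over Chat, Slc18a3 and Slc5a7, markers of cholinergic neurons, numbered under 10 in 4 LOC and 5 MOC libraries, and 3 libraries (LOC 14, LOC 16 and MOC 8) held none. The median was 305.5 reads in LOC libraries and 28 in MOC libraries, the summed level was 527 CPM in LOC cells and 234 CPM in MOC cells, and Slc18a3 met the size rule given below in LOC. All 14 microglial markers had a lower mean in LOC cells, none was at 0 in either group, and 7 met that rule in MOC. Their summed level was 704.9 CPM in LOC cells and 2460.3 CPM in MOC cells, with 89.5 to 2306 CPM per cell in LOC and 40.7 to 11785 CPM per cell in MOC. Summed oligodendrocyte markers came to 67788 CPM in LOC cells and 60017 CPM in MOC cells, with a range of 22.7 to 238537 CPM per cell in LOC and 363 to 123302 CPM in MOC cells. Of these 10 markers, 7 had a higher summed CPM in MOC, whereas 7 had a higher mean in LOC. Opalin met the rule in MOC. The 4 markers of inhibitory neurons summed to 268 CPM in LOC cells and 625 CPM in MOC cells, with Gad1 meeting the rule in MOC, and the 7 vessel markers to 25.5 CPM in LOC cells and 57.5 CPM in MOC cells, with none meeting it. The 7 astrocyte markers summed to 2878 CPM in LOC cells and 3677 CPM in MOC cells, with Aldh1l1 meeting the rule in MOC. The part of these markers in the results below was not tested. For members described singly, the difference without the 3 MOC libraries highest in microglial markers (MOC 7, 8 and 12) is given where it ended or added a call, turned the sign or was over 1.5 times larger or smaller.

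Promoters are shown for 4 of the 5 members that met the size rule given below, because NRF1, YY1 and the ETS factor GABP are textbook regulators of respiratory chain genes. RefSeq windows (GRCm38.p6, 250 bases before to 50 after a start) were found for 41 of the 47 members, and Ndufa2, Ndufa4l2, Ndufaf6, Ndufb9 and Ndufs1 were among those without one. The sequences are 5′ to 3′ on the strand of the gene, with the motif in capitals. The Ndufa8 stretch (chr2:36049349-36049378, minus strand) holds an NRF1-type motif, on the opposite strand, 30 to 21 bases before the RefSeq start. That start and the stretch lie inside the gene's span in GENCODE M21 (36036326 to 36049406), which begins further upstream. The Ndufaf4 stretch (chr4:24897933-24898082, plus strand) holds an NRF1-type motif 113 to 104 bases before its start. The Ndufa9 stretch (chr6:126849097-126849126, minus strand) holds a YY1-type motif at bases 30 to 37 after the start, and the Ndufs8 stretch (chr19:3912741-3912770, minus strand) an ETS-type motif, on the opposite strand, at bases 16 to 22.
Ndufa8: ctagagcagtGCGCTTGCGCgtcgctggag
Ndufaf4: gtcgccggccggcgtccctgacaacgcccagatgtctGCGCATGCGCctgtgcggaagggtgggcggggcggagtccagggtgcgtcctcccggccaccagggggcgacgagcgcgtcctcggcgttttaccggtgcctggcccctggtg
Ndufa9: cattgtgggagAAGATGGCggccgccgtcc
Ndufs8: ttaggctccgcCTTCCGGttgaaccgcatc

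Searched on both strands, the NRF1-type letters GCGCA, any base and GCGC were in 9 of the 41 members (22.0%), against 5.19% of the 27025 genes with a window. The 9 were Ndufa5, Ndufa6, Ndufa8, Ndufa11, Ndufaf4, Ndufaf5, Ndufb4, Ndufs5 and Ndufs6. The YY1-type letters AAGATGGC were in 8 members (19.5%), against 3.19% of all genes, namely Ndufa3, Ndufa9, Ndufaf8, Ndufb8, Ndufc1, Ndufs4, Ndufs6 and Ndufs7. The ETS-type letters CCGGAAG were in 6 members (14.6%), against 9.93% of all genes, namely Ndufaf1, Ndufaf8, Ndufb6, Ndufb7, Ndufs3 and Ndufs8. At least 1 of the 3 was in 21 of the 41 members (51.2%), against 16.4% of all genes. All genes here means every gene with a window, measured or not, and they were not matched to the members in level or base content. Ndufs6 and Ndufaf8 held a pair of different motifs, which did not overlap each other. The member higher in LOC and a member higher in MOC, Ndufaf4 and Ndufa8, each carried a match to the NRF1-type letters, with another base at the free position and, in Ndufa8, on the opposite strand. A match describes letters in a window and shows no binding.

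The summed level of the 37 structural subunits was lower in LOC cells. Its lowest value in LOC was 2805 CPM (LOC 1), its median 5183 CPM and its highest value 8880.2 CPM (LOC 7), whereas in MOC the lowest was 2882 CPM (MOC 13), the median 7657 CPM and the highest 10618 CPM (MOC 3). The ranges overlapped over most of their length. LOC 7 was the only LOC cell above the MOC median, 10 of 13 MOC cells were above the LOC median, and MOC 3, MOC 4 and MOC 10 were above every LOC cell. The mean of log2 was 12.36 ± 0.41 in LOC (SD, n = 18 cells) and 12.74 ± 0.55 in MOC (n = 13 cells), a difference of -0.38, less than the SD of either group. In counts summed over cells the level in MOC was 1.47 times that in LOC. With the total taken over nuclear genes alone the difference was -0.28, and without MOC 7, 8 and 12 it was -0.35.

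**Figure D1:**
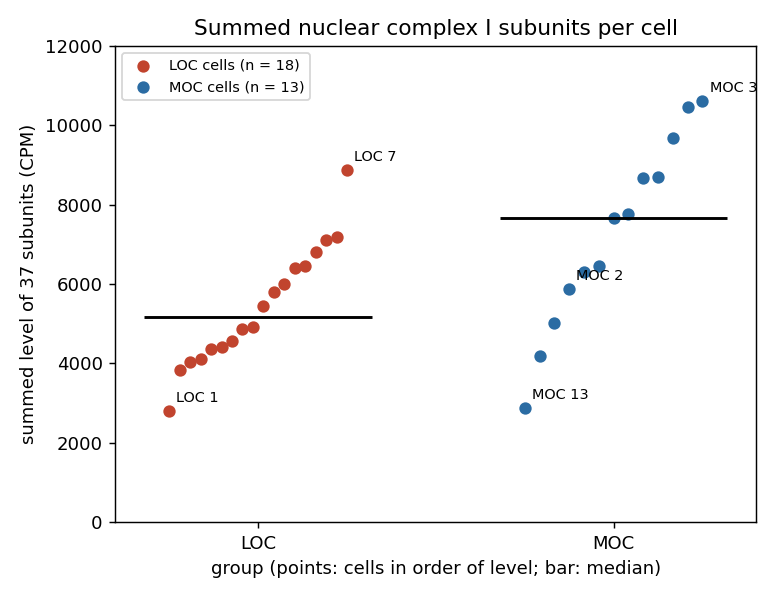
Summed level of the 37 structural subunits in CPM (linear axis) for each of 18 LOC cells and 13 MOC cells, ordered by level within each group, with a bar at the median. The LOC median lies at 5183 CPM and the MOC median at 7657 CPM, with LOC 1 and MOC 13 the lowest cells of their groups.

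Across all 47 members the lean to MOC was wide or slight depending on how cells were averaged. Summed over cells, 41 of 47 had a higher CPM in MOC cells, which held for 51.2% of all measured genes, and among the 37 subunits it held for 36. The exception was Ndufa1, with 214 CPM in LOC cells and 213 CPM in MOC cells. By contrast, the mean of log2(CPM + 1) over cells was higher in LOC for 20 of 47 members, close to the 45.7% of all measured genes. The median difference of these means, LOC minus MOC, was -0.26 for the members and -0.07 for all measured genes. Without MOC 7, 8 and 12 the members' median was 0.05 and 24 members lay above 0, beside 47.1% of all measured genes. In that setting 40 of 47 members had a higher summed CPM in MOC cells.

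Both averages include cells with no read of a subunit, and these were unevenly spread. MOC 13 held no read of 10 of the 37 subunits (Ndufa5, Ndufa10, Ndufab1, Ndufb3, Ndufb11, Ndufs3, Ndufs4, Ndufs5, Ndufs7 and Ndufv1), and MOC 2 none of 6 (Ndufb3, Ndufb11, Ndufc1, Ndufs4, Ndufs6 and Ndufv3). MOC 4 had a read of every subunit, but only 1 to 3 counts for 6 of them (Ndufa5, Ndufa10, Ndufb2, Ndufb6, Ndufs5 and Ndufs7), beside the second highest summed level of all cells. The other 10 MOC cells had reads of all 37. In LOC, 0 reads occurred at most for 2 subunits in a cell (Ndufa9 and Ndufs1 in LOC 13). The others were Ndufa8 in LOC 1, Ndufb7 in LOC 3, Ndufb9 in LOC 8, Ndufs8 in LOC 14 and Ndufa9 in LOC 15. Among the 3572 genes of at least 50 CPM, 21.4% were at 0 in MOC 13 and 8.01% in MOC 2, and the mitochondrially encoded genes took 1.56% and 1.72% of their counts. Of these genes, 25.8% were at 0 in LOC 17, 19.6% in LOC 16 and 16.5% in MOC 5. The mitochondrially encoded genes took 23.3%, 43.7% and 1.65% of the counts of these 3 cells, which had reads of all 37 subunits. The cause of the missing reads in MOC 13 and MOC 2 was not tested. MOC 13 had 1 read over the 3 cholinergic markers and MOC 2 had 45. Without both, 7 of 47 members lay above 0 (45.4% of all measured genes), the median difference was -0.51 and that of the summed level -0.51. Leaving out either alone gave 11 members above 0 (45.9% of all measured genes without MOC 2 and 41.8% without MOC 13). In all 31 cells, 18 subunits and Ndufa4 were read.

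**Figure D2:**
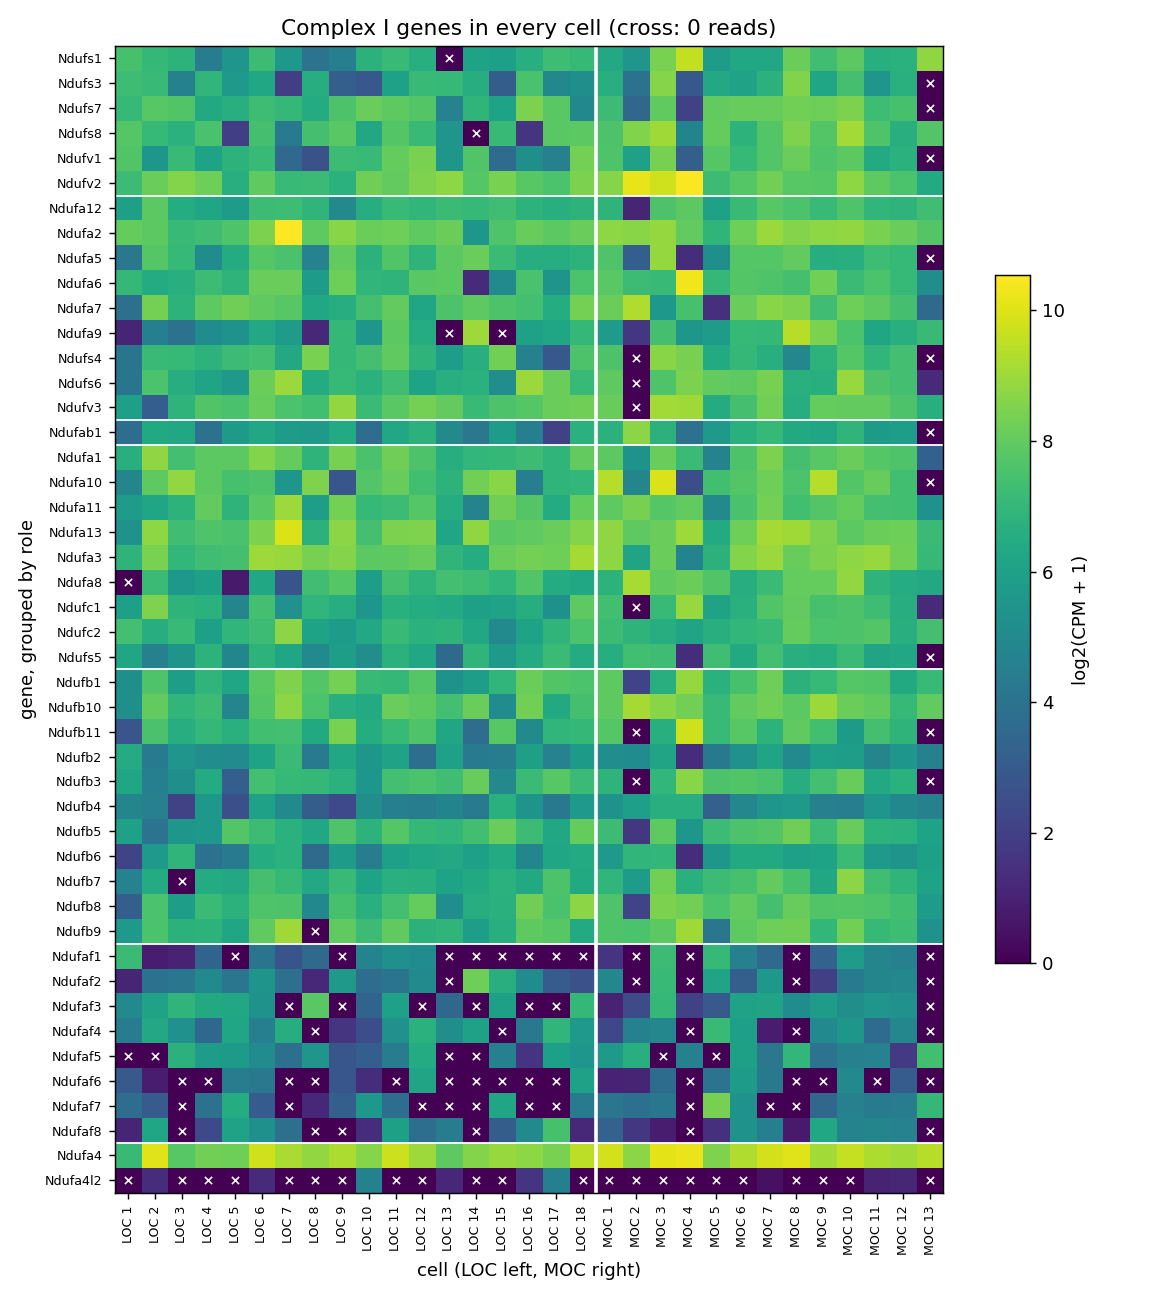
Level of 46 of the 47 members, as log2(CPM + 1) on a colour scale, in 18 LOC cells (left) and 13 MOC cells (right), with genes in rows grouped by role and white crosses at 0 reads. MOC 13 and MOC 2 show the most crosses among subunits, 10 and 6, and the assembly factors show crosses across both groups.

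The peripheral arm core consists of 7 members, all with a higher summed CPM in MOC cells and 6 with a lower mean in LOC, and their median difference was -0.26. The size rule asks, for LOC or MOC, that a gene's CPM over all cells of the group reach 2 times or more the level in the other, that its mean log2(CPM + 1) exceed the other's by 1 or more, and that 25% or more of the cells in the higher group hold a read. Of all measured genes, 6.07% met it in LOC and 5.67% in MOC. Among the 47 members, 1 met it in LOC (Ndufaf4, 2.13%) and 4 in MOC (Ndufs1, Ndufs8, Ndufa8 and Ndufa9, 8.51%), so the calls were few and near these shares.

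Ndufs8 (chromosome 19, 3908863 to 3912774, minus strand, GRCm38) encodes a core subunit that holds iron-sulfur clusters near the ubiquinone site. Its lowest, median and highest values were 0, 138 and 232 CPM in LOC cells and 25.7, 209.7 and 543 CPM in MOC cells. LOC 14 had no read and LOC 16 only 1 to 3 counts, 4 LOC cells lay below every MOC cell, and 5 MOC cells lay above every LOC cell. The summed level was 128 CPM in LOC cells (95% Poisson interval 122 to 134) and 269 CPM in MOC cells (261 to 278), and the means were 6.06 ± 2.45 and 7.68 ± 1.15, a difference of -1.62. Its call was lost without LOC 5, LOC 14, MOC 3 or MOC 10, with differences of -1.51 to -1.26. It was also lost in the authors' normalized table, where the level of 129 in LOC cells and 259 in MOC cells fell just short of a ratio of 2 (difference -1.68), with a total that left out mitochondrial genes and oligodendrocyte markers (-1.51), and with medians over cells (-0.60).

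Ndufs1 (chromosome 1, 63143596 to 63176833, minus strand) encodes the largest core subunit, which carries iron-sulfur clusters of the electron path. It had a lowest value of 0, a median of 97.8 and a highest value of 174 CPM in LOC cells, and 43.5, 104 and 767 CPM in MOC cells. The medians were alike (difference -0.08 with medians over cells), and 5 MOC cells lay above every LOC cell. Summed, it reached 89.8 CPM in LOC cells (84.9 to 94.8) and 191 CPM in MOC cells (184 to 199), with a difference of means of -1.31. The call was lost without LOC 13, where it had 0 reads (difference -0.96), and without MOC 3, MOC 4 or MOC 13 (ratio of summed CPM under 2). In libraries with at least 10 cholinergic reads the difference was -0.70. An exon of Ndufs1 overlaps one of Eef1b2, a translation factor gene with more counts, on the opposite strand.

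No other core gene met the rule. Ndufv2, an iron-sulfur subunit beside the NADH site, had lowest, median and highest values of 97.5, 249.9 and 423 CPM in LOC cells and 84.9, 241 and 1417 CPM in MOC cells. Its medians were close, and its summed level of 251 CPM in LOC cells against 432 CPM in MOC cells rested on 4 MOC cells above every LOC cell. Ndufv1, which binds NADH and the flavin, had 5.12, 124 and 341 CPM in LOC cells and 0, 198 and 333 CPM in MOC cells (difference -0.26, -0.80 without MOC 13, and 0.05 without MOC 7, 8 and 12). Ndufs7, whose cluster hands electrons to ubiquinone, had 24.6, 142 and 350.4 CPM in LOC cells and 0, 251 and 355 CPM in MOC cells. Its mean difference was 0.52, toward LOC, while 10 of 13 MOC cells lay above the LOC median, and the difference was -0.02 without MOC 13, -0.82 with medians over cells and 0.95 without MOC 7, 8 and 12. Ndufs3, a scaffold of the arm, had 2.81, 70.4 and 183 CPM in LOC cells and 0, 80.3 and 395 CPM in MOC cells (difference -0.26, -0.75 without MOC 13, and 0.19 without MOC 7, 8 and 12).

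The 9 accessory subunits of the peripheral arm and the acyl carrier protein followed no common direction by their means (5 of 9 above 0, median 0.19), although the summed CPM of all 9 was higher in MOC. Ndufa9 (chromosome 6, 126821721 to 126849136, minus strand), which binds NADPH where the arms meet, met the size rule in MOC. Its lowest, median and highest values were 0, 49.4 and 512 CPM in LOC cells and 2.23, 129 and 682 CPM in MOC cells. LOC cells covered the whole scale, from 0 reads in LOC 13 and LOC 15 to a level in LOC 14 above all MOC cells but 1. It came to 77.2 CPM in LOC cells (72.7 to 81.9) and 186 CPM in MOC cells (179 to 194), with means of 4.93 ± 2.67 and 6.60 ± 1.83 and a difference of -1.68. MOC 8 gave 39.0% of the MOC counts, and without it the summed ratio was below 2 (127 CPM in MOC cells) and the difference -1.44. The call was likewise lost without MOC 7, 8 and 12 (77.2 CPM in LOC cells and 129 CPM in MOC cells, difference -1.35) and with libraries thinned to 350000 counts (87.8 CPM in LOC cells and 164 CPM in MOC cells, difference -1.73).

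Ndufa5 and Ndufs4 had the widest differences toward LOC in this arm. Ndufa5, a small subunit of the arm, had lowest, median and highest values of 17.4, 124 and 282 CPM in LOC cells and 0, 130.5 and 468 CPM in MOC cells, a mean difference of 0.89. Ndufs4, whose loss in mice causes a fatal brain disease with lesions in the brainstem, had 6.33, 129 and 342 CPM in LOC cells and 0, 121 and 409.5 CPM in MOC cells, a mean difference of 0.61. Both rested on low MOC cells: the difference of Ndufs4 was -0.49 without MOC 2 and 13, and that of Ndufa5 was 0.39 with MOC 13 left out, -0.35 with summed counts and 1.39 without MOC 7, 8 and 12. Ndufab1, the mitochondrial acyl carrier protein that binds to both arms and also serves fatty acid synthesis, had 3.16, 52.6 and 107 CPM in LOC cells and 0, 83.5 and 419 CPM in MOC cells. Its difference was -0.61, and it met the size rule in MOC only without MOC 13 (difference -1.11), with summed counts or in libraries with at least 10 cholinergic reads. The other 6 accessory subunits of the arm had mean differences between -0.79 (Ndufa6) and 0.23 (Ndufv3).

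The 9 subunits beside the foot of the membrane arm had a median difference of 0.04. Ndufa8 (chromosome 2, 36036326 to 36049406, minus strand), a cysteine-rich protein on the side of the intermembrane space, had more LOC cells below every MOC cell than any other subunit. Its lowest, median and highest values were 0, 103 and 214 CPM in LOC cells and 82.0, 204 and 571 CPM in MOC cells. Of the LOC cells 8 lay below every MOC cell and 1 lay above the MOC median, and 6 MOC cells lay above every LOC cell. Summed, it came to 98.6 CPM in LOC cells (93.5 to 104) and 219.7 CPM in MOC cells (212 to 228), with means of 5.89 ± 2.31 and 7.55 ± 0.91 and a difference of -1.67. LOC 1 had no read of it, and LOC 5 and LOC 7 had 1 to 3 counts. The difference was -0.995 with medians over cells, just outside the rule, and without MOC 2, which held 17.1% of the MOC counts, the summed ratio fell below 2.

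Ndufa1, a small membrane protein encoded on the X chromosome, had lowest, median and highest values of 94.6, 187 and 439 CPM in LOC cells and 8.63, 199 and 349 CPM in MOC cells, with a mean difference of 0.55 (0.24 without MOC 13, and -0.09 with medians over cells). The other 7 genes near the foot, which include Ndufa10, Ndufa11 and Ndufa13, had mean differences between -0.41 (Ndufc2) and 0.14 (Ndufc1).

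The 11 Ndufb subunits at the far end of the membrane arm had a median difference of -0.35, none met the size rule with all cells, and all had a higher summed CPM in MOC cells. Ndufb10 and Ndufb7, cysteine-rich subunits facing the intermembrane space, had the widest differences, both of about -1.0. Ndufb10 had lowest, median and highest values of 27.1, 169 and 418 CPM in LOC cells and 132, 253 and 553 CPM in MOC cells, with 7 LOC cells below every MOC cell. Ndufb7 had 0, 86.2 and 189.9 CPM in LOC cells and 53.5, 149 and 418 CPM in MOC cells. Each missed the rule narrowly, Ndufb10 with a ratio of 1.93 and Ndufb7 with a difference just short of 1. With single cells left out, Ndufb7 met it in 20 of 31 settings and Ndufb10 in 6 of 31. Of the 13 other settings, Ndufb7 met it in 4 (TMM sizes, summed counts, at least 10 cholinergic reads, and without MOC 2 and 13) and Ndufb10 in 3 (TMM sizes, at least 10 cholinergic reads, and without MOC 7, 8 and 12). The smallest ratio of summed CPM in this arm was that of Ndufb2, with 44.5 CPM in LOC cells and 45.7 CPM in MOC cells. Its exons overlap those of Braf on the opposite strand.

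**Figure D3:**
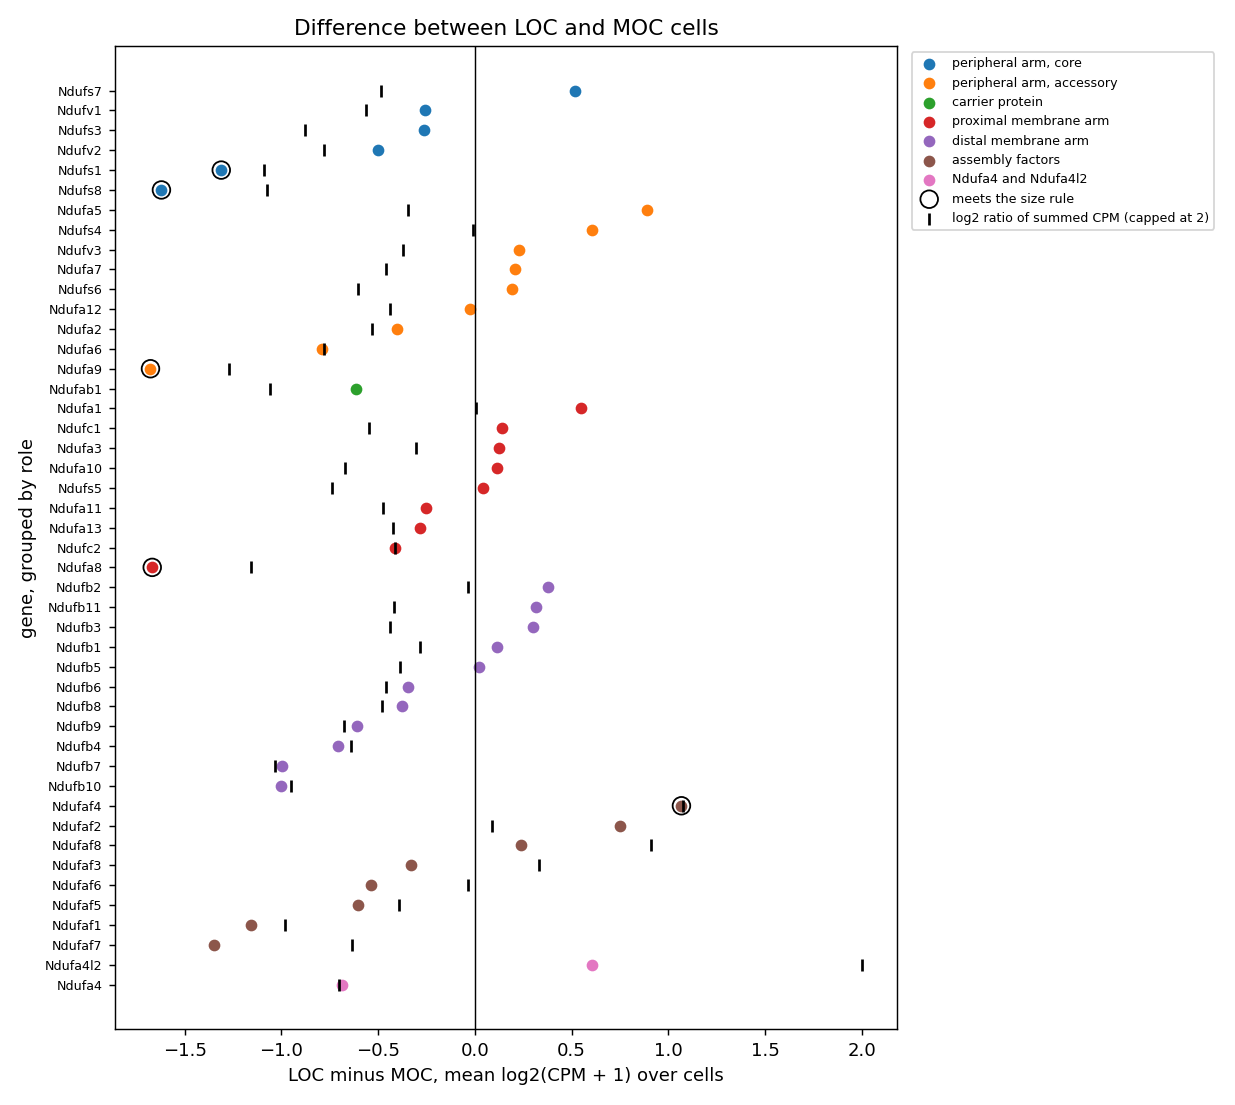
Difference of each of 46 of the 47 members, LOC minus MOC, as the mean of log2(CPM + 1) over cells (points, coloured by role, circled where the size rule was met) and as the log2 ratio of summed CPM (ticks, capped at 2), in genes grouped by role. Most ticks lie left of 0 while the points spread to both sides, from -1.68 for Ndufa9 to 1.07 for Ndufaf4.

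The 8 Ndufaf assembly factors, which build the complex and are not part of it, showed no shared direction. Their summed level per cell was lowest at 67.4 CPM (LOC 13), had a median of 249.6 CPM and was highest at 399 CPM (LOC 5) in LOC, against 27.3 CPM (MOC 4), 187 CPM and 694 CPM (MOC 5) in MOC. The mean of log2 was 7.70 ± 0.82 in LOC and 7.64 ± 1.12 in MOC, a difference of 0.06. By summed CPM 4 of the 8 were higher in each group, and the median of the differences was -0.43. Each factor was read in 8 to 17 of 18 LOC cells and in 8 to 12 of 13 MOC cells.

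Ndufaf4 (chromosome 4, 24898083 to 24905001, plus strand), an early assembly factor that works together with Ndufaf3, met the size rule in LOC. It had a lowest value of 0, a median of 37.5 and a highest value of 120.3 CPM in LOC cells, and 0, 23.4 and 137 CPM in MOC cells. The ranges coincided, with reads in 88.9% of the LOC cells (16 of 18, exact 95% interval 65.3 to 98.6) and 76.9% of the MOC cells (10 of 13, 46.2 to 94.96). Summed, it came to 46.2 CPM in LOC cells (42.7 to 49.8) and 21.9 CPM in MOC cells (19.5 to 24.6), with means of 4.51 ± 2.18 and 3.44 ± 2.52 and a difference of 1.07. It was lost in 11 of 31 settings that leave out 1 cell (LOC 2, 5, 7, 12, 14 or 17, or MOC 1, 4, 7, 8 or 13, with differences of 0.78 to 0.98) and in 8 of 13 other settings. In libraries with at least 10 cholinergic reads the difference was 0.12, and without MOC 7, 8 and 12 it was 0.60.

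Among the other factors, Ndufaf7, a methyltransferase, had lowest, median and highest values of 0, 7.28 and 91.8 CPM in LOC cells and 0, 16.7 and 331 CPM in MOC cells, a difference of -1.35. MOC 5 held 45.3% of its MOC counts and LOC 5 held 43.9% of its LOC counts. It met the size rule in MOC without LOC 5 (difference -1.59), in the authors' normalized table (-1.31), with libraries thinned to 350000 counts (-1.29) and without MOC 7, 8 and 12 (-2.05). Ndufaf1, which forms an assembly complex with Ecsit and Acad9, had 0, 0.92 and 146 CPM in LOC cells and 0, 11.04 and 148 CPM in MOC cells, a difference of -1.16. LOC 1 alone gave 56.0% of its LOC counts. Its ratio of summed CPM in MOC cells to LOC was 1.97, and it met the rule without LOC 1, 10, 11 or 12, or without MOC 1, 2, 4, 6, 7, 8, 9, 12 or 13. It also met it with TMM sizes (difference -1.20), with at least 10 cholinergic reads (-1.80), without MOC 2 and 13 (-1.75) and without MOC 7, 8 and 12 (-1.32). Ndufaf5, which hydroxylates Ndufs7, had 0, 22.3 and 109 CPM in LOC cells and 0, 24.1 and 161 CPM in MOC cells (difference -0.61, and 0.25 with at least 10 cholinergic reads). Ndufaf8, its partner, had 0, 10.4 and 176 CPM in LOC cells and 0, 8.86 and 76.6 CPM in MOC cells (difference 0.24, and -0.15 without MOC 2 and 13). Ndufaf2, a paralog of the subunit Ndufa12, had 0, 16.02 and 299 CPM in LOC cells and 0, 18.8 and 142 CPM in MOC cells (difference 0.75, and -0.94 with at least 10 cholinergic reads). None of these kept apart the cells of the groups.

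A list of 13 complex I assembly genes with other names was matched for 12, all measured, whose median difference was -0.17. Of the 12, 1 met the size rule in LOC (8.33%, against 6.07% of all measured genes). This was Foxred1, at 45.8 CPM in LOC cells and 17.3 CPM in MOC cells, with reads in 11 LOC and 4 MOC cells. Another 2 met it in MOC (16.7%, against 5.67% of all measured genes), so these shares rest on few genes. Tmem126b, a membrane partner of Ndufaf1, had 16.1 CPM in LOC cells and 51.5 CPM in MOC cells, with reads in 8 LOC and 9 MOC cells. Dmac2, a factor of the distal arm, had 22.1 CPM in LOC cells and 75.7 CPM in MOC cells, with reads in 15 LOC and 12 MOC cells. These calls were not recomputed under other settings.

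Ndufa4 had lowest, median and highest values of 141, 439 and 1028 CPM in LOC cells and 356, 684 and 1210.1 CPM in MOC cells, and reads in all 31 cells. Of the LOC cells 6 lay below every MOC cell, and 11 of 13 MOC cells lay above the LOC median. The means were 8.77 ± 0.74 in LOC and 9.46 ± 0.54 in MOC, a difference of -0.69 that ranged from -0.79 to -0.56 over the other settings and from -0.77 to -0.59 when single cells were left out. Ndufa4l2, a paralog induced by low oxygen in other tissues, was close to the detection limit, with 41 counts spread over 6 LOC cells (33.3%, interval 13.3 to 59.0) and 3 counts over 3 MOC cells (23.1%, 5.04 to 53.8). This was 2.88 CPM in LOC cells (2.06 to 3.90) and 0.22 CPM in MOC cells (0.05 to 0.64), and LOC 17 gave 51.2% of the LOC counts. Shmt2 overlaps it on the opposite strand with more reads.

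The 7 subunits encoded in mitochondrial DNA stood the other way from the nuclear ones. Of these, 6 were measured, all 6 had a higher mean and a higher summed CPM in LOC cells, and none met the size rule. mt-Nd4l was not measured (0.35 CPM in LOC cells and 0.15 CPM in MOC cells). Their summed level per cell was lowest at 4865 CPM (LOC 14), with a median of 48299 CPM and a highest value of 119089 CPM (LOC 16) in LOC. In MOC the lowest was 2737 CPM (MOC 5), the median 29315 CPM and the highest 71997 CPM (MOC 11). Differences of the 6 genes ran from 0.47 (mt-Nd5) to 1.44 (mt-Nd3), with a median of 1.08. The log2 ratio of nuclear to mitochondrial subunits in a cell was -2.73 ± 1.14 in LOC and -1.55 ± 1.29 in MOC, a difference of -1.18, with 11 of 13 MOC cells above the LOC median and 2 of 18 LOC cells above the MOC median. The ranges overlapped, from -4.36 to 0.02 in LOC and from -3.52 to 0.62 in MOC, and the 6 highest ratios were those of MOC 5, MOC 2, LOC 14, LOC 15, MOC 4 and MOC 13. All mitochondrial genes together took 19.4% of counts on average in LOC cells and 13.8% in MOC cells, and the aspirated volume of cytoplasm was not used here.

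**Figure D4:**
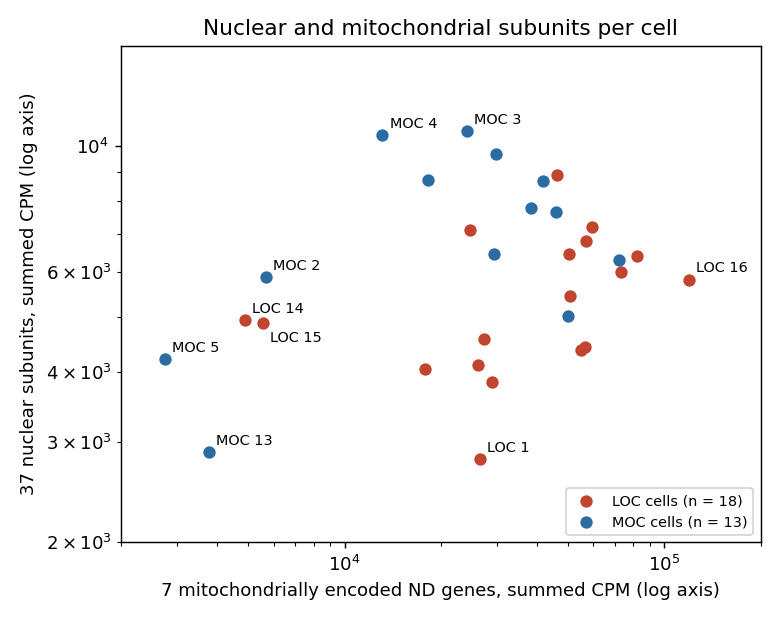
Summed CPM of the 37 nuclear subunits (log axis) against summed CPM of the 7 mitochondrially encoded ND genes (log axis), 1 point per LOC cell (n = 18) or MOC cell (n = 13). MOC cells lie mostly above and left of LOC cells, and LOC 14, LOC 15, MOC 2, MOC 5 and MOC 13 lie apart at the left with few mitochondrial reads.

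Nuclear genes of the other respiratory complexes lay on the same side as complex I by their medians, which were -0.55 for 4 genes of complex II, -0.46 for 9 of complex III, -0.41 for 10 of complex IV and -0.39 for 17 of complex V. In complexes IV and V every measured gene had a lower mean in LOC. This held for 27 of the 47 members and for 9634 of the 17754 measured genes, whose median was -0.07. Values of complexes II to V were not recomputed under other settings. The size rule was met in MOC by 1 of 4 genes of complex II (Sdhb), 1 of 9 of complex III (Uqcrc2) and 1 of 10 of complex IV (Cox5a). None of the 17 of complex V met it in MOC, and no gene of these complexes met it in LOC. Of all measured genes, 5.67% met it in MOC and 6.07% in LOC, so these calls rest on few genes. The differences of Sdhb, Uqcrc2 and Cox5a (-1.26, -1.25 and -1.18) were each smaller than the SD of either group. A list of 9 regulators of respiratory genes, among them Nrf1, Yy1, Gabpa and Ppargc1a, had a median of 0.16 and none met the rule in either group.

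Set against transcript length, the subunits differed widely within both groups. The level per length (CPM per 1000 bases of transcript) was highest for Ndufa3, a small membrane subunit, at 514 in LOC and 634 in MOC, Ndufa2, a subunit with a thioredoxin-like fold, at 466 in LOC and 674 in MOC, and Ndufa1 at 510.4 in LOC and 509 in MOC. It was lowest for Ndufab1 at 15.1 in LOC and 31.5 in MOC, Ndufb4, a distal subunit, at 30.5 in LOC and 47.6 in MOC, and Ndufs1 at 33.7 in LOC and 71.8 in MOC. The highest mean of both groups was 24.6 times the lowest. The order depends on the length used: per 1000 bases of all exons merged, Ndufb2 was lowest, at 7.91 in LOC and 8.12 in MOC (rank 37, against rank 31 by transcript), Ndufa2 was highest, and the ratio was 71.1. Transcript lengths ran from 315 bases (Ndufc1) to 3479 bases (Ndufab1). Coverage along transcripts was not measured, and its part in the order was not tested. Ndufa3, Ndufa2 and Ndufb4, named for this order, had mean differences of 0.12, -0.40 and -0.71, and that of Ndufa3 was 0.31 without MOC 7, 8 and 12.

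**Figure D5:**
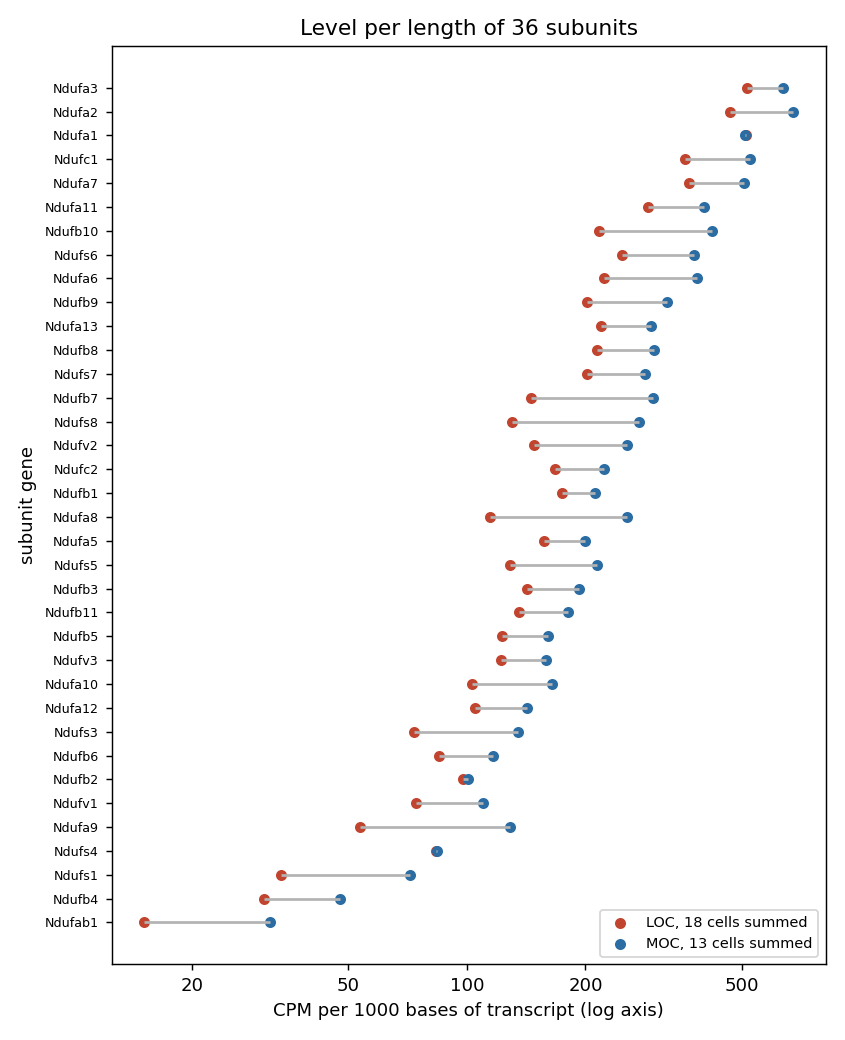
Level per length of 36 of the 37 structural subunits, in CPM per 1000 bases of transcript (log axis), with a line joining the summed LOC level (18 cells) and the summed MOC level (13 cells) of each gene, ordered by the mean of both. Ndufa3, Ndufa2 and Ndufa1 head the order and Ndufab1 ends it, and the MOC point lies right of the LOC point for all but Ndufa1.

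The subunits had a lower median spread between cells than the genes of at least 50 CPM. Those genes were picked by their level over all cells together. They were not matched to the subunits in level or in the share of cells with a read. The median SD of log2(CPM + 1) over the 37 subunits was 1.24 in LOC and 1.62 in MOC (0.97 without MOC 2 and 13), beside 2.21 in LOC and 2.36 in MOC for the 3572 genes of at least 50 CPM. Pairs of subunits went together weakly over cells. The median Spearman correlation over 666 pairs was 0.17 across the 18 LOC cells and 0.29 across the 13 MOC cells (0.24 without MOC 2 and 13), beside 0.06 in LOC and 0.04 in MOC for pairs of the 3572 genes. The genes of a pair share the library, depth and total of each cell, so these values are a description.

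Exons of 20 members overlap an exon of another gene, in 18 cases on the opposite strand, and Nextera libraries keep no strand. Besides those named above, the neighbour had more than 1000 counts for Ndufaf3 (Impdh2, with more counts than Ndufaf3 itself) and Ndufb11 (Rbm10), among others. Reads of these pairs cannot be told apart with certainty.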

How the data were processed

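Single neurons (18 LOC, 13 MOC) were grouped by the cell type in the labels. The authors deposited raw counts per gene and a table of normalized signal values, CPM on TMM-adjusted sizes by its name, whose columns sum to between 721736 and 1737008. Per the submitters' processing notes STAR 2.5.2, DESeq2, edgeR, limma and bcl2fastq were used with GRCm38 and mm10, and the counting tool is not given in sources used here. From the counts, CPM was computed with the total over 55421 mouse genes (19 added sequences left out), then log2(CPM + 1), with means and SDs over cells. Summed counts have exact 95% Poisson intervals and shares of cells exact Clopper-Pearson intervals, which cover counting error only. The Poisson intervals treat every read as independent and leave out the spread between cells. Smart-seq2 has no molecular identifiers, so these Poisson intervals are too narrow for counts of molecules. The floor of the size rule was 3 counts over a group. Differences are LOC minus MOC. For low genes they can fall short of the log2 ratio of summed CPM or exceed it. Nrf1, for example, had 17.53 CPM in LOC cells and 19.4 CPM in MOC cells, but a difference of -1.10. No 2 libraries were identical. edgeR 4.0.16 gave TMM sizes as an alternative, and the scripts were tested on simulated data. Lengths, positions and overlaps came from GENCODE M21 (GRCm38), with 1 transcript per gene, chosen by a RefSeq match. Members, lists and alternatives were chosen with earlier results of these data known. Named genes were those meeting the size rule, the 7 core genes, Ndufa4 and Ndufa4l2, the 3 widest differences per direction among subunits and among assembly factors, and the 3 highest and lowest levels per length. Of these, 1 gene is not reported here by name, but it stays in the sums and counts. Others named were chosen after their values were seen.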

Additional observations from a re-analysis of the deposited data

How the results depend on the processing

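The difference of the summed subunit level kept its direction in all 13 other settings (-0.25 to -0.56) and with each cell left out (-0.48 to -0.33). The members' median ran from -0.39 to -0.09 with each cell left out (-0.09 without MOC 3) and was above 0, at 0.05, without MOC 7, 8 and 12. The number of members meeting the size rule in LOC was 0 with a pseudocount of 10, TMM sizes, the authors' normalized table, medians over cells, thinning to 350000 counts, and without MOC 7, 8 and 12, without MOC 2 and 13, or in the 14 LOC and 8 MOC libraries with at least 10 cholinergic reads. Over those settings 2.08% to 8.47% of all measured genes met it in LOC. The number was 2 with summed counts (16.6% of all measured genes) and 0 to 1 with each cell left out (5.15% to 7.33%). In MOC it was 7 with TMM sizes, 1 with medians over cells (Ndufa9) and 8 with at least 10 cholinergic reads. Of all measured genes, 6.94%, 6.79% and 6.90% met it in MOC in these 3 settings. With each cell left out it ran from 2 (without MOC 3) to 7 (without LOC 11 or MOC 12). Members with a difference above 0 numbered 6 with summed counts, 7 with medians over cells and 7 without MOC 2 and 13. Of all measured genes, 48.8%, 32.4% and 45.4% lay above 0 in these settings. With each cell left out, 11 to 21 members lay above 0, beside 40.8% to 48.7% of all measured genes. Of 1055 recomputed differences of single named members, 62 gave another call and 28, in 12 genes, another sign (36 and 6 of the 744 that leave out 1 cell). The cause of these changes was not tested. Leaving out MOC 2 and 13, and a total without mitochondrial genes and oligodendrocyte markers, were added after seeing the data. No paired analysis was possible because no test was run and each group is 1 sample of cells without animals named. Depth limits genes near the 8.42 CPM that 3 counts make in the shallowest library, such as Ndufa4l2.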

Other observations

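Copies of complex I genes outside the naming rule were read rarely. Over all 31 cells Ndufs5-ps had 102 counts, Ndufa12-ps 83, Ndufb4c 29, Ndufa11b 25, Ndufs6b 21 and Ndufab1-ps 11. Reads shared between these copies and Ndufs5, Ndufa12, Ndufb4, Ndufa11, Ndufs6 and Ndufab1 could have been split or dropped by the counting, which is not described in the sources used here.

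Among regulators of respiratory genes, Pprc1, a coactivator of the PGC-1 family, had 19.6 CPM in LOC cells and 4.62 CPM in MOC cells (difference 0.86). Nrf1 had 17.53 CPM in LOC cells and 19.4 CPM in MOC cells (difference -1.10) and Gabpa 16.97 CPM in LOC cells and 25.3 CPM in MOC cells (difference -1.02). All 3 had wide spreads between cells. The SDs were 2.16 in LOC and 1.74 in MOC for Pprc1, 2.04 in LOC and 2.47 in MOC for Nrf1, and 2.04 in LOC and 2.07 in MOC for Gabpa. Pprc1 was read in 13 LOC and 7 MOC cells, Nrf1 in 10 and 9, and Gabpa in 14 and 12. These 3 genes were picked after their values were seen.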
